A study of Mus musculus with 12 samples.

Results

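The collagen genes of mouse skin were followed for a day after RNAdjuvant was injected into the dermis. They were taken as every gene with a single-symbol probe set whose symbol is Col, a number, the letter a and a number, and a gene with several such probe sets was read from its brightest, by the mean of 12 arrays. This gave 44 collagen genes, from 46 probe sets, of 19938 genes measured. RNAdjuvant is a vaccine adjuvant built from a non-coding RNA and a cationic peptide.

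Female Balb/c mice gave the skin biopsies, whose RNA was measured on Affymetrix Mouse Gene 1.0 arrays with 3 biological replicates in each of 4 groups. In 3 groups the skin was taken 1.5 h, 6 h or 24 h after RNAdjuvant into the dermis, at a dose that the labels give as 25 mg, with no means here to check that unit. Mice of the fourth group were left untreated, and an injection of the carrier alone was not analysed here, so the needle and the adjuvant cannot be told apart. The sources used here do not give the age of the mice or the body site. Values are log2 intensities, a change is a difference of group means on that scale, and a gene counts as changed at a limma adjusted p under 0.05 over all 19938 genes.

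Collagens are triple helices of 3 chains, each made by its own gene or shared with its partners, and they are the bulk of the protein of the dermis. Type I and type III collagen form its fibrils, types V and XI set their width, and fibril-associated collagens such as XII and XIV coat their surface. Type IV forms the net of basement membranes, type VI forms beaded filaments, and types VII and XVII fasten the epidermis to the dermis. Fibroblasts make most dermal collagen.

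By that split the 44 genes held 11 fibrillar, 6 basement membrane, 9 fibril-associated, 8 beaded filament or related, 1 anchoring fibril, 3 short-chain, 4 transmembrane and 2 multiplexin genes. The median signal over all genes was 6.24, and 22 collagen genes lay above it and 22 below it. All 44 were found in RefSeq by gene ID under the same symbol.

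The sequences just upstream of 3 of these genes are shown because their values are given below. Col1a2 and Col3a1 encode chains of the main dermal fibrils, and Col6a4 was the collagen gene that passed the test as higher at 6 h. That call was lost in 17 alternative fits, as given below. Each is 250 bases of RefSeq sequence (GRCm38.p6) that ends at the start of the gene, read in the direction of the gene. Capitals mark 3 motifs on either strand, which are CCAAT, bound by the factor NF-Y, the motif of the basal promoter written TATAAA, and the motif bound by Sp1, written GGGCGG, and no match overlaps another in these 3 windows. Col1a2 lies at chr6:4505368-4505617 on the plus strand, Col3a1 at chr1:45311288-45311537 on the plus strand and Col6a4 at chr9:106096692-106096941 on the minus strand.
Col1a2: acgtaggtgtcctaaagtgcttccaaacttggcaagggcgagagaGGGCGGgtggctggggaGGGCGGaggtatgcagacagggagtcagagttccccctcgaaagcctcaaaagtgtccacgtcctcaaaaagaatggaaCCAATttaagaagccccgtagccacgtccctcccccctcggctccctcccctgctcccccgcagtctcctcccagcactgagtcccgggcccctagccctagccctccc
Col3a1: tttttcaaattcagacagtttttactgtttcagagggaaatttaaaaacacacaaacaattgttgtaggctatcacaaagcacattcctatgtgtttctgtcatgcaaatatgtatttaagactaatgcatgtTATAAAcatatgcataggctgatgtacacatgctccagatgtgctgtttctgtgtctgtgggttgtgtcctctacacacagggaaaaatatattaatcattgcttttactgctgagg
Col6a4: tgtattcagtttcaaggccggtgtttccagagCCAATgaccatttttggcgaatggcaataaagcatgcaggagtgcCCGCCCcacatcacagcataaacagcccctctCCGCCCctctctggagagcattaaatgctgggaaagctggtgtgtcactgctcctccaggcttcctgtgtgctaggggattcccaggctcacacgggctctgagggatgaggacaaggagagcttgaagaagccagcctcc

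RefSeq windows of the same length were at hand for 35 of the 44 genes, in 38 windows. CCAAT was in 13 of the 38 collagen windows (34.2%), against 33.8% of all 32851 windows. TATAAA was in 5 (13.2%), against 12.4%, and GGGCGG was in 22 (57.9%), against 32.7%. An element of the kind found upstream of interferon-induced genes (the 4 letters GAAA repeated after a gap of any 2 bases) was in 0 of the 38 collagen windows, against 2.98% of all windows. All 4 motifs were searched on both strands. No match says only that these letters are not in these 250 bases, and a match is a description of the sequence.

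Some libraries stood apart. Array medians lay between 5.53 and 5.76, and arrays correlated over genes at 0.988 to 0.993 within a group and at 0.968 to 0.99 between groups. In the third 24 h library, 19 of the 22 collagen genes above the median signal were lowest of the 3 libraries, with a median of -0.54 against the untreated mean, where the other 24 h libraries had 0.03 and 0.17. The 11 fibroblast markers there had a median of -0.49, against -0.12 and 0.00 in the other 24 h libraries, and the 15 basement membrane partners had -0.42, against -0.01 and 0.00. Of the 4 lymph node markers measured, all were above the untreated mean in the first 1.5 h library (median 2.61) and the first 6 h library (2.09). Glandular epithelium markers (7 measured) had medians of 2.90, 1.46 and 1.97 at 1.5 h, 3.11, -0.26 and -0.24 at 6 h, and 1.67, 1.60 and 2.33 at 24 h. Hair follicle markers (9 measured) had a median of 1.46 in the second untreated library and between -1.40 and -0.44 in the other 11. Skeletal muscle markers (10 measured) averaged 10.94 to 12.03 per library. Their medians were 0.32, 0.48 and 0.04 at 1.5 h, -0.35, -0.09 and 0.07 at 6 h, and 0.39, -0.32 and 0.03 at 24 h. Adipocyte markers (6 measured) averaged 9.10 to 10.16, with medians of 0.30, -0.15 and 0.29 at 1.5 h. At 6 h they had 0.27, -0.67 and -0.51, and at 24 h 0.20, 0.14 and -0.21. The part of these markers in the collagen values was not tested. Values without the third 24 h library or the first 6 h library are given beside several of the genes whose change they move. The median change of the 44 collagen genes was 0.05 at 24 h without the third 24 h library, against 0.01 with it, and 0.12 at 6 h with or without the first 6 h library.

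The markers of skin were present in every library. The 5 basal keratinocyte markers measured averaged 10.7 to 10.8 in untreated skin, 10.6 to 10.9 at 1.5 h, 10.5 to 10.8 at 6 h and 10.5 to 10.6 at 24 h on the log2 scale. The 11 fibroblast markers averaged 9.30 to 9.47 in untreated skin, 9.08 to 9.23 at 1.5 h, 9.09 to 9.33 at 6 h and 8.88 to 9.24 at 24 h. The 9 endothelial markers averaged 7.06 to 7.19, 6.93 to 7.20, 6.77 to 7.18 and 6.92 to 7.34 in the same order. The 9 cartilage markers averaged 4.84 to 4.97, 4.88 to 5.0, 4.96 to 5.03 and 4.96 to 5.03. Cartilage collagens, type II, IX, X and XI among them, were measured in a tissue whose cartilage markers were dim apart from Sox9 (mean 8.54), which hair follicles also express. Of the 9, Cnmd passed at 24 h, with a change of 0.52 (limma adjusted p = 0.0315).

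Few collagen genes passed the test within 24 h, and the shares of all genes are given beside the counts. A gene that did not pass may still have changed. At 1.5 h, 0 of 44 passed the test, where 2.2% of all genes did (0.612% higher and 1.59% lower). An unadjusted limma p under 0.05 was found for 2 collagen genes, and for 3490 of all 19938 genes. At 6 h, 2 of 44 passed (4.55%), 1 of them higher and 1 lower, where 6.09% of all genes passed (3.38% higher and 2.71% lower). The unadjusted limma p was under 0.05 for 7 of the 44, and for 4616 of all 19938 genes. Col14a1, which encodes a collagen on the fibril surface, fell, and Col6a4, a type VI chain, rose. Those calls were lost in 14 and 17 alternative fits, as given below. At 24 h, 0 of 44 passed, where 3.36% of all genes did (2.55% higher and 0.808% lower). Of the 44, 5 had an unadjusted limma p under 0.05, as did 3407 of all 19938 genes. The F test over the 3 times called 1 of 44, Col14a1, where it called 11.4% of all genes. In a bulk biopsy, fewer cells of a type and less RNA per cell cannot be told apart.

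The family's median change was 0.01 at 1.5 h, 0.12 at 6 h and 0.01 at 24 h, beside 0.02, -0.04 and 0.00 over all genes. Single genes ran from -0.65 to 0.28 at 1.5 h, from -0.57 to 0.49 at 6 h and from -0.73 to 0.39 at 24 h, so no estimated change reached 1 log2 unit. The 95% intervals of Col1a1 (to -1.04 at 1.5 h, to 1.06 at 6 h and to -1.25 at 24 h), Col1a2 (to -1.01 at 1.5 h) and Col12a1 (to -1.05 at 1.5 h and to -1.14 at 24 h) reached past that size. Centring the arrays on their medians put the median of all genes at 0.12 at 1.5 h.

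**Figure D1:**
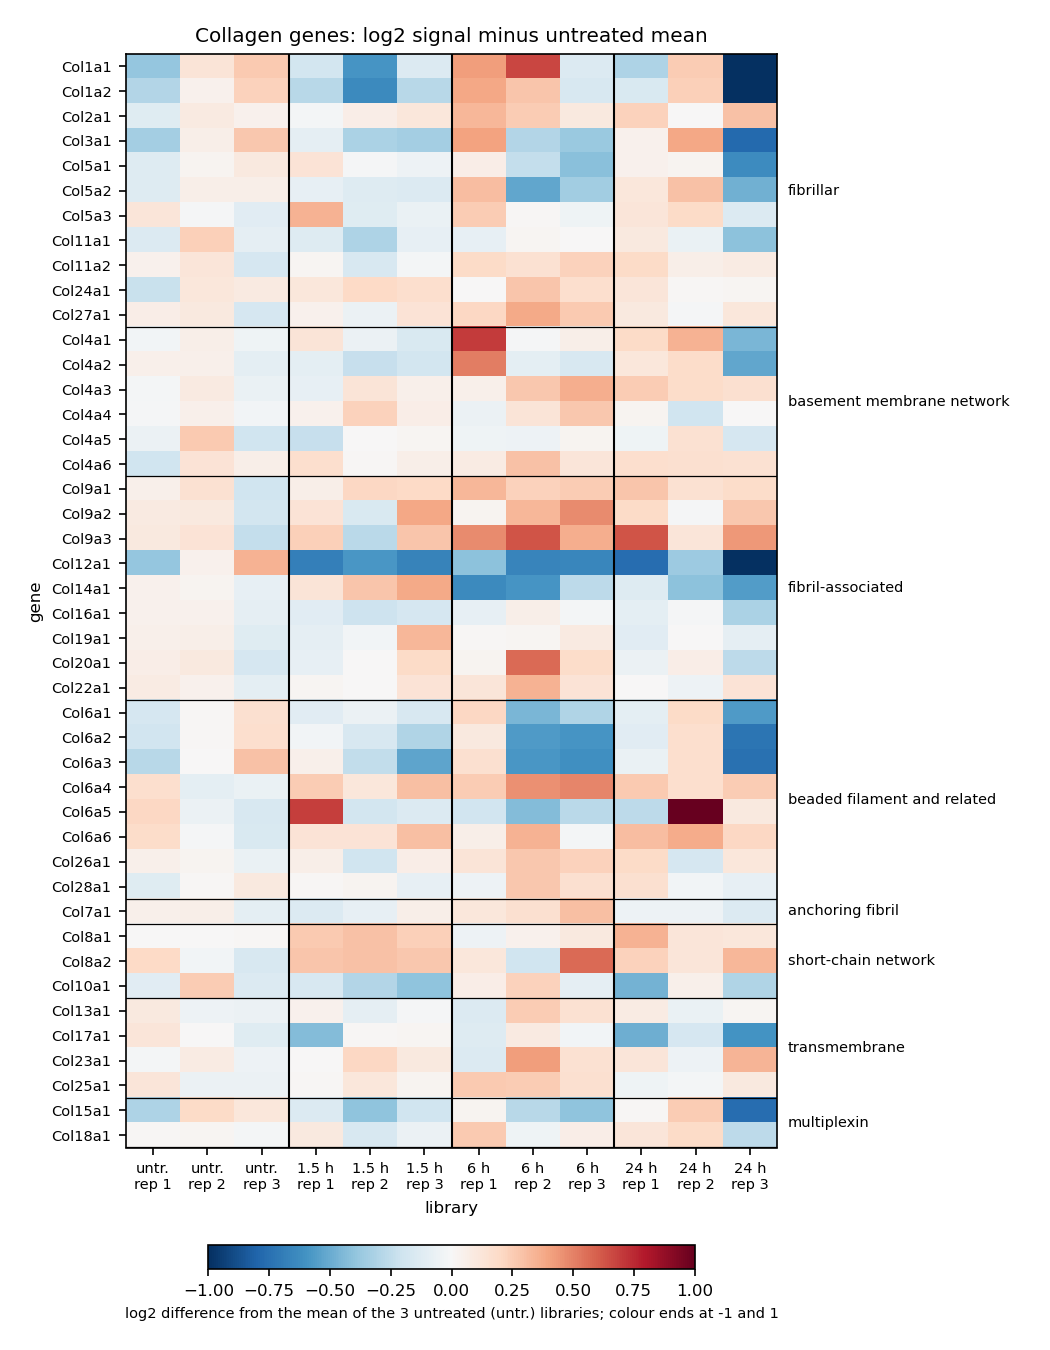
Each row is 1 of the 44 collagen genes, grouped by class, and each column is 1 library in order of time (untr. is untreated). Colour is the log2 signal minus the mean of the 3 untreated libraries, and the third 24 h library is lowest of its group for Col1a1, Col1a2, Col3a1, Col4a1, Col4a2, Col5a1, Col5a2 and Col6a1 to Col6a3.

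The 6 h changes are given next by signal. Of the 22 collagen genes below the median signal, 19 had a positive change, with a median of 0.15, and the median per library was 0.06, 0.25 and 0.15. A positive change was found for 6347 of all 9969 genes below the median signal. All genes below the median signal had medians of 0.01, 0.08 and 0.09 in the same libraries, and all genes above it had -0.11, -0.16 and -0.12. The 22 collagen genes above the median signal had a median change of 0.01 at 6 h, with 11 positive, where 2383 of all 9969 genes above it were. Their 6 h libraries differed, with medians of 0.13, -0.03 and -0.15, and 17, 10 and 7 of the 22 genes above the untreated mean. In 10 of 44 genes (22.7%) the 6 h libraries all lay above the untreated ones, where this was so for 11.4% of all genes. In 3 of 44 (6.82%) they all lay below, where this was so for 19.3% of all genes.

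Those 10 genes were Col2a1, Col6a4, Col7a1, Col9a1, Col9a3, Col11a2, Col22a1, Col25a1, Col26a1 and Col27a1, and the 3 were Col6a5, Col12a1 and Col14a1. At 1.5 h, 3 genes lay above the untreated libraries (11.8% of all genes) and 3 below (13.3% of all genes). At 24 h, 4 lay above (10.9% of all genes) and 2 below (12.4% of all genes). The 4 were Col4a3, Col4a6, Col6a6 and Col8a1, and the 2 were Col14a1 and Col17a1.

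Between times, 1 of 44 collagen genes passed at 6 h against 1.5 h, where 13.3% of all genes passed (5.47% higher and 7.8% lower). At 24 h against 1.5 h, 1 of 44 passed, where 2.91% of all genes did (2.24% higher and 0.667% lower). Both calls were Col14a1, and both were falls. In these comparisons 7 and 1 of the 44 had an unadjusted limma p under 0.05, as did 5959 and 3114 of all 19938 genes. At 24 h against 6 h, 0 of 44 passed, where 3.44% of all genes did (2.03% higher and 1.41% lower). Of the 44, 5 had an unadjusted limma p under 0.05, as did 4098 of all 19938 genes. The 6 h libraries lay above all 1.5 h libraries in 11 genes (13.2% of all genes), among them Col1a2, Col7a1, Col9a3 and Col27a1, and below them in 3 (19.8% of all genes), Col6a5, Col8a1 and Col14a1. The 24 h libraries lay above all 6 h libraries in 1 gene (14.2% of all genes), Col8a1, and below them in 5 (9.29% of all genes), Col7a1, Col17a1, Col19a1, Col25a1 and Col27a1. Against 1.5 h they lay above in 2 genes (9.82% of all genes), Col4a3 and Col11a2, and below in 2 (9.12% of all genes), Col4a4 and Col14a1.

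**Figure D2:**
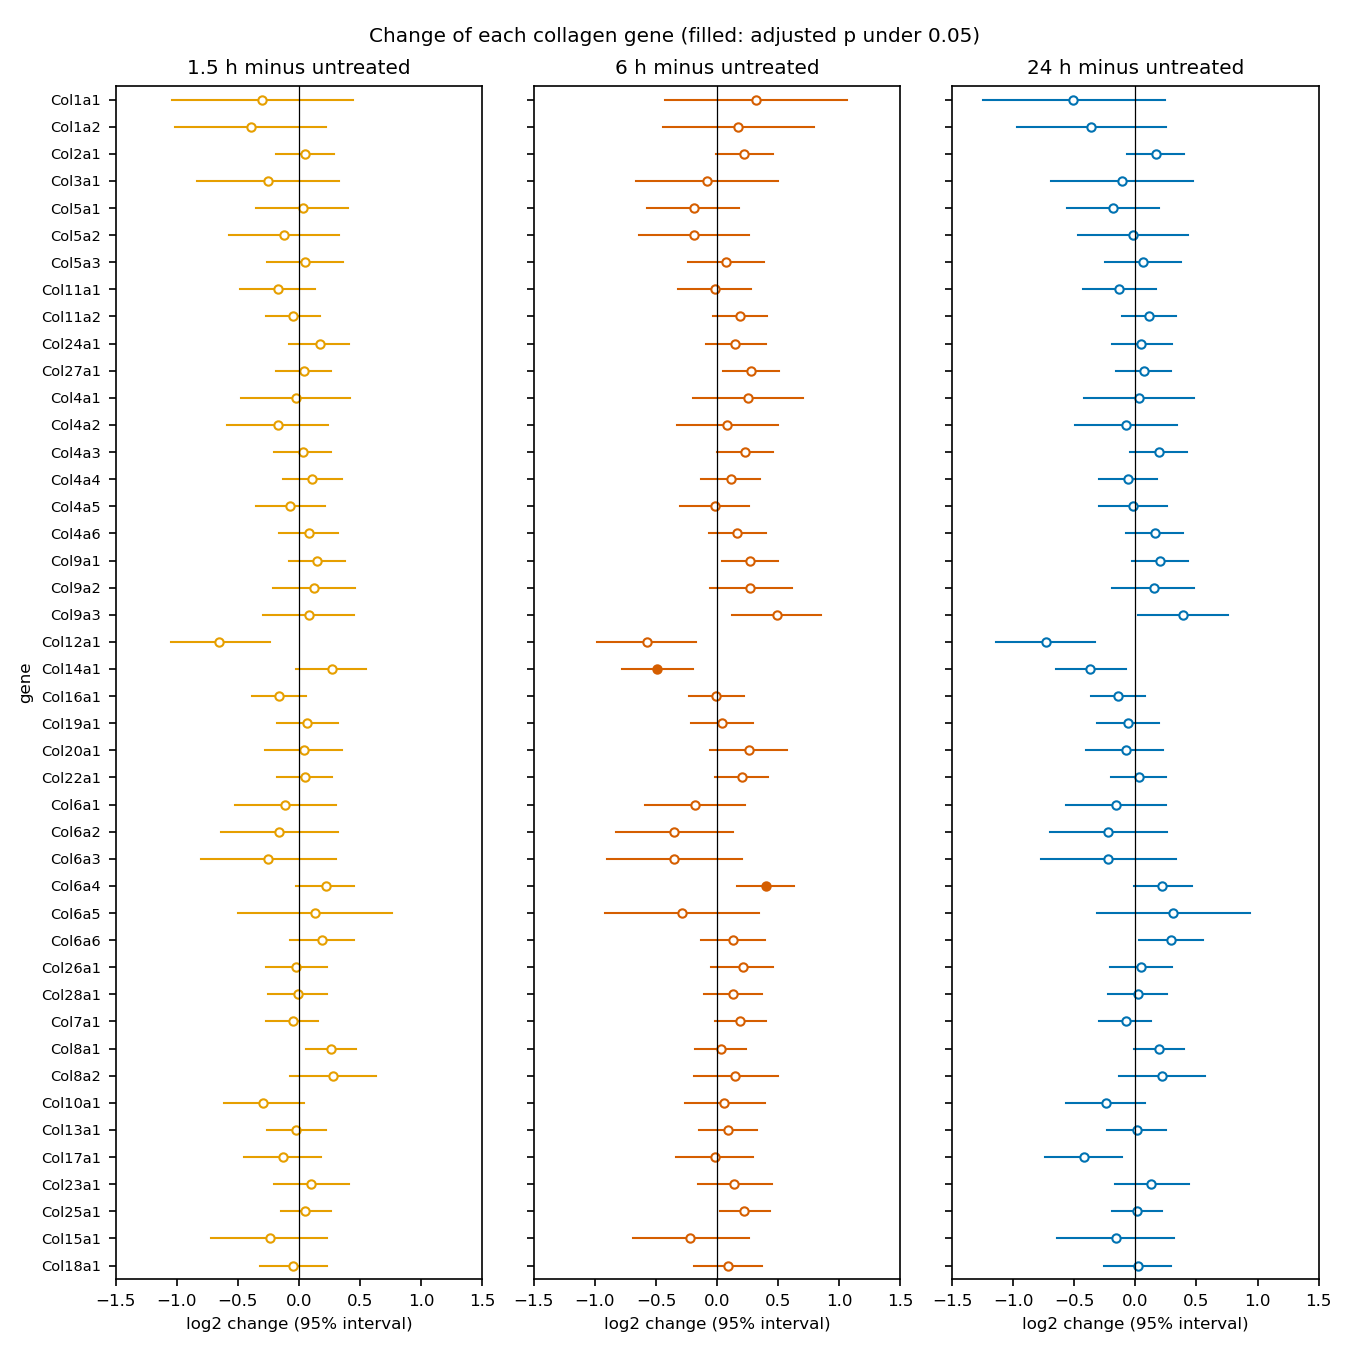
Points are the log2 change of each of the 44 collagen genes against untreated skin at 1.5 h, 6 h and 24 h, with the 95% interval from the limma fit. Filled points passed at an adjusted p under 0.05, which only Col14a1 and Col6a4 did, both at 6 h.

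The fibrillar genes come first in order of role. None of the 11 passed the test at any time against untreated skin, with medians of -0.05 at 1.5 h, 0.15 at 6 h (0.06 without the first 6 h library) and -0.02 at 24 h (0.07 without the third 24 h library), and the only unadjusted limma p under 0.05 was that of Col27a1 at 6 h. Col1a1, the main chain of type I collagen, had values of 9.87, 10.39 and 10.52 in untreated skin, 10.08, 9.67 and 10.12 at 1.5 h, 10.68, 10.93 and 10.12 at 6 h, and 9.95, 10.51 and 8.81 at 24 h. Groups overlapped, and the third 24 h library was more than 1 log2 unit below the other 24 h libraries. The change was -0.30 at 1.5 h, 0.32 at 6 h (95% interval -0.43 to 1.06) and -0.51 at 24 h (-1.25 to 0.24), with limma adjusted p of 0.695, 0.602 and 0.489. Without the third 24 h library the 24 h change was -0.03. The within-group SD of Col1a1 was 0.53, at the 99th percentile of all genes.

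Col1a2, its partner chain in type I collagen, had 10.66, 10.99 and 11.18 in untreated skin, 10.67, 10.31 and 10.67 at 1.5 h, 11.34, 11.23 and 10.79 at 6 h, and 10.80, 11.19 and 9.77 at 24 h. Its libraries took the same order within the 24 h group as those of Col1a1. The change was -0.39 at 1.5 h, 0.17 at 6 h and -0.36 at 24 h, with limma adjusted p of 0.5, 0.736 and 0.562, and without the third 24 h library the 24 h change was 0.05. All 6 h libraries lay above the 1.5 h libraries, by a mean of 0.57 (limma adjusted p = 0.2).

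Col3a1, the chain of type III collagen, had 10.41, 10.81 and 11.02 in untreated skin, 10.66, 10.43 and 10.41 at 1.5 h, 11.15, 10.46 and 10.38 at 6 h, and 10.79, 11.14 and 9.97 at 24 h. Groups overlapped at every time, with changes of -0.25, -0.08 and -0.11 and limma adjusted p of 0.682, 0.869 and 0.876. The 24 h change was 0.22 without the third 24 h library, and the 6 h change was -0.32 without the first 6 h library, which was also high in lymph node markers.

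Col27a1, a fibrillar chain best known from cartilage, had 6.38, 6.41 and 6.14 in untreated skin, 6.35, 6.25 and 6.45 at 1.5 h, 6.52, 6.69 and 6.57 at 6 h, and 6.41, 6.30 and 6.42 at 24 h. All 3 of its 6 h libraries were above the untreated ones, by a mean of 0.28, but the adjusted p was 0.133 in the limma fit. The other 7 fibrillar genes (Col2a1, Col5a1, Col5a2, Col5a3, Col11a1, Col11a2 and Col24a1) had changes between -0.19 and 0.22 at 6 h and between -0.18 and 0.17 at 24 h. Col5a1 and Col5a2, whose chains join in type V collagen, both had -0.19 at 6 h, and -0.33 and -0.43 without the first 6 h library. At 24 h they had -0.18 and -0.02, and 0.04 and 0.20 without the third 24 h library.

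**Figure D3:**
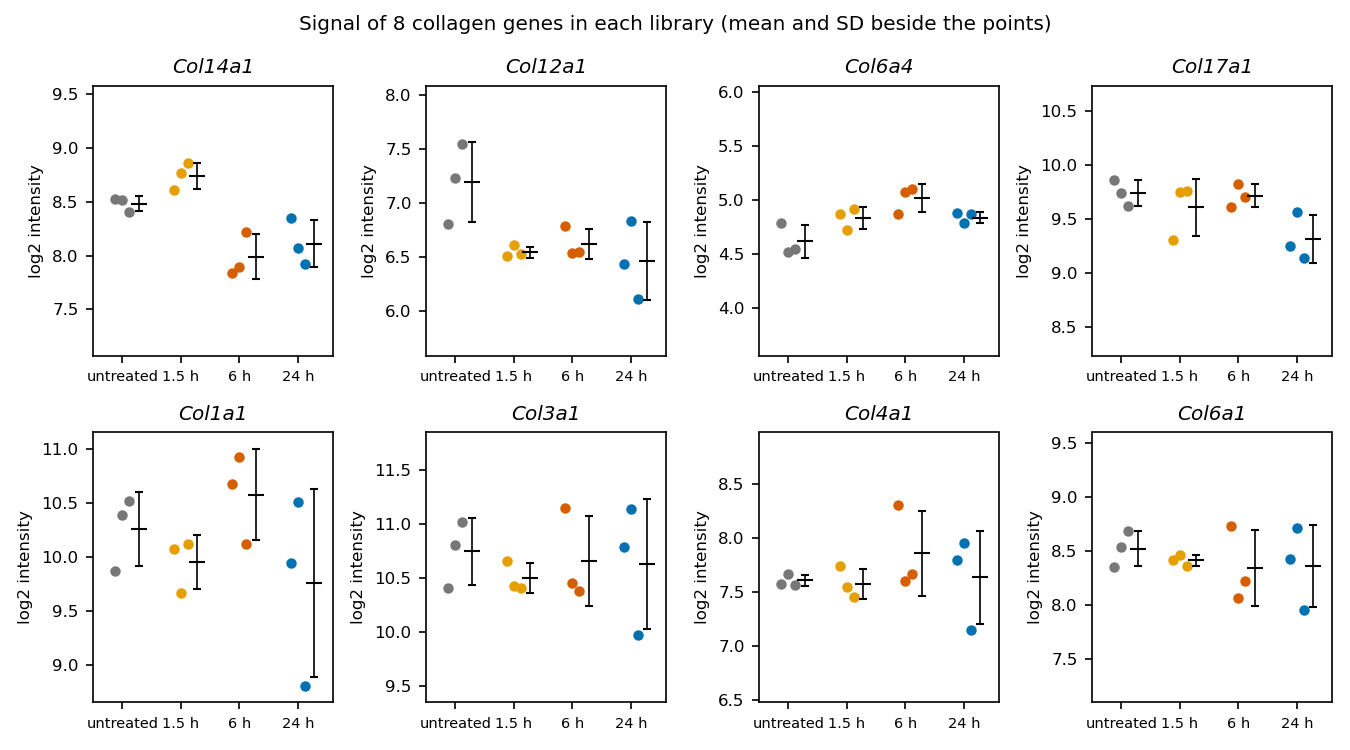
Points are the log2 intensity of 8 collagen genes in each library of untreated skin and of skin 1.5 h, 6 h and 24 h after RNAdjuvant, with the mean and SD of the 3 libraries beside them; each panel spans the same range on its log2 axis. Col14a1 lies above untreated skin at 1.5 h and below it at 6 h and 24 h, while 1 low library spreads the 24 h values of Col1a1, Col3a1, Col4a1 and Col6a1.

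Among the 9 fibril-associated genes, Col14a1 passed at 6 h and none passed at 1.5 h or 24 h. An unadjusted limma p under 0.05 was found for 1 at 1.5 h, 4 at 6 h and 3 at 24 h. Col14a1, whose product binds the surface of type I fibrils, had 8.52, 8.51 and 8.40 in untreated skin, 8.61, 8.76 and 8.86 at 1.5 h, 7.84, 7.89 and 8.22 at 6 h, and 8.35, 8.07 and 7.92 at 24 h. Every 1.5 h library was above every untreated one, and every 6 h and 24 h library was below them. At 1.5 h the mean was 8.74 ± 0.12, against 8.48 ± 0.07 in untreated skin (SD, n = 3 each), a change of 0.27 that did not pass (limma adjusted p = 0.32). At 6 h the mean was 7.99 ± 0.21, against the same untreated mean, a change of -0.49 (95% interval -0.78 to -0.20, limma adjusted p = 0.0458), or 0.711 times the untreated signal. At 24 h the mean was 8.11 ± 0.22, and the change of -0.37 did not pass (limma adjusted p = 0.178).

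Between times the fall of Col14a1 was larger. It was -0.76 at 6 h against 1.5 h (95% interval -1.05 to -0.47, limma adjusted p = 0.00329), 0.591 times the 1.5 h signal, and this call held in every alternative run. It was -0.63 at 24 h against 1.5 h (limma adjusted p = 0.0186). The call at 6 h against untreated skin was lost in 8 of 12 fits that left out 1 library, namely any untreated library, replicate 2 or 3 at 1.5 h, replicate 1 or 2 at 6 h, or replicate 2 at 24 h, with changes of -0.53 to -0.42. It was also lost with no moderation of the variance (limma adjusted p = 0.0876), with values under 5 raised to 5 (0.0767), with only the groups compared (0.0601), and with quantile normalization, where the change was -0.42 (0.112). No Col14a1 value was under 5. A block for replicate number ended the call too, as did leaving out both libraries high in lymph node genes. The call at 24 h against 1.5 h was lost without replicate 2 or 3 of either group, with changes of -0.63 to -0.54, and with no moderation, values under 5 raised to 5 or only the groups compared (limma adjusted p = 0.0687, 0.0534 and 0.0565).

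Col12a1, whose product also coats fibrils and is prominent where tissue bears load, had 6.80, 7.23 and 7.54 in untreated skin, 6.51, 6.61 and 6.52 at 1.5 h, 6.78, 6.53 and 6.54 at 6 h, and 6.43, 6.83 and 6.11 at 24 h. Its 1.5 h and 6 h libraries all lay below the untreated ones, and at 24 h 1 library overlapped them. The means were 6.54 ± 0.05 at 1.5 h, 6.62 ± 0.14 at 6 h and 6.46 ± 0.36 at 24 h, against 7.19 ± 0.37 in untreated skin (SD, n = 3 each). The changes of -0.65, -0.57 and -0.73 did not pass, with limma adjusted p of 0.0998, 0.0926 and 0.0528. Without the first untreated library, the lowest of that group, they were -0.84, -0.77 and -0.93 and passed at all 3 times. Other fits that left out 1 library brought them as near 0 as -0.47, -0.40 and -0.56. The limma adjusted p in such fits reached 0.294, 0.302 and 0.209. Without the second 24 h library the 24 h change was -0.92 and passed, and without the third it was -0.56.

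Col9a3, a chain of type IX collagen, had 6.22, 6.26 and 5.88 in untreated skin, 6.36, 5.85 and 6.40 at 1.5 h, 6.59, 6.75 and 6.48 at 6 h, and 6.75, 6.24 and 6.55 at 24 h. Its 6 h libraries were all above the untreated ones, by a mean of 0.49, the largest positive change of the 44 genes at that time, and it did not pass (limma adjusted p = 0.113). Its partner chains Col9a1 and Col9a2 had 6 h changes of 0.27 each. The remaining fibril-associated genes (Col16a1, Col19a1, Col20a1 and Col22a1) had 6 h changes of -0.01 to 0.26.

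None of the 6 basement membrane genes passed at any time, and none had an unadjusted limma p under 0.05 against untreated skin, with medians of 0.00 at 1.5 h, 0.14 at 6 h and 0.00 at 24 h (0.15 without the third 24 h library). Col4a1, found in nearly all basement membranes, had 7.58, 7.67 and 7.57 in untreated skin, 7.74, 7.55 and 7.46 at 1.5 h, 8.31, 7.60 and 7.67 at 6 h, and 7.80, 7.96 and 7.15 at 24 h. Replicate 1 at 6 h and replicate 3 at 24 h lay far from the rest of their groups. The change was -0.02, 0.25 and 0.03 at the 3 times, with limma adjusted p of 0.969, 0.48 and 0.964, and without the first 6 h library the 6 h change was 0.03. Without the third 24 h library the 24 h change was 0.27. Centring the arrays on their medians turned the 1.5 h change to 0.08.

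Col4a2, which pairs with Col4a1 in the same trimer, had 6.84, 6.84 and 6.69 in untreated skin, 6.69, 6.56 and 6.61 at 1.5 h, 7.30, 6.69 and 6.63 at 6 h, and 6.90, 6.97 and 6.27 at 24 h. Again the same libraries as for Col4a1 were extreme. The change was -0.17, 0.08 and -0.08, with limma adjusted p of 0.691, 0.818 and 0.884. It was -0.13 at 6 h without the first 6 h library and 0.15 at 24 h without the third 24 h library. The 4 genes of the tissue-restricted type IV chains, Col4a3 to Col4a6, had 6 h changes of -0.02 to 0.23.

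In the beaded filament class, Col6a4 passed at 6 h and none of the 8 passed at 1.5 h or 24 h. An unadjusted limma p under 0.05 was found for 0 at 1.5 h, 1 at 6 h and 1 at 24 h. Col6a1, the first chain of type VI collagen, had 8.35, 8.53 and 8.68 in untreated skin, 8.41, 8.46 and 8.36 at 1.5 h, 8.73, 8.06 and 8.22 at 6 h, and 8.42, 8.71 and 7.95 at 24 h. Groups overlapped, with changes of -0.11, -0.18 and -0.16 and limma adjusted p of 0.818, 0.587 and 0.726. The change was -0.38 at 6 h without the first 6 h library and 0.05 at 24 h without the third 24 h library. Col6a2 and Col6a3, which complete that trimer, both had -0.35 at 6 h and -0.22 at 24 h, and did not pass. They had -0.58 and -0.60 at 6 h without the first 6 h library, and 0.03 and 0.05 at 24 h without the third 24 h library.

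Col6a4, a chain similar to that of Col6a3, had 4.79, 4.52 and 4.55 in untreated skin, 4.87, 4.73 and 4.92 at 1.5 h, 4.87, 5.08 and 5.11 at 6 h, and 4.88, 4.79 and 4.87 at 24 h. All 6 h libraries were above the untreated ones, the nearest by less than 0.1. The 6 h mean was 5.02 ± 0.13, against 4.62 ± 0.15 in untreated skin (SD, n = 3 each), a change of 0.40 (95% interval 0.16 to 0.63, limma adjusted p = 0.0473). The array table has no detection calls, and with values under 5 raised to 5 the change was 0.06 and did not pass. The call was lost in 10 of 12 fits that left out 1 library, that is in all but those without the first untreated or the first 6 h library, with changes of 0.35 to 0.40. It was also lost with a variance trend and robust fit (limma adjusted p = 0.0584), no moderation (0.0514) or only the groups compared (0.0959), with arrays centred on their medians (0.36, 0.0731) and with quantile normalization (0.31, 0.105). A block for replicate number ended the call too. The other type VI and related genes (Col6a5, Col6a6, Col26a1 and Col28a1) had 6 h changes of -0.29 to 0.21.

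Among the collagens that fasten the epidermis, Col7a1, the only gene of the anchoring fibrils, had 6.61, 6.62 and 6.46 in untreated skin, 6.42, 6.48 and 6.62 at 1.5 h, 6.67, 6.72 and 6.86 at 6 h, and 6.51, 6.51 and 6.42 at 24 h. Its 6 h libraries lay above all untreated and all 24 h libraries. The change was -0.05, 0.19 and -0.08 at the 3 times, with limma adjusted p of 0.822, 0.268 and 0.723. The 1.5 h change was 0.05 with arrays centred on their medians.

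Col17a1, a transmembrane collagen of the hemidesmosomes of basal keratinocytes, had 9.86, 9.74 and 9.62 in untreated skin, 9.31, 9.75 and 9.76 at 1.5 h, 9.61, 9.83 and 9.71 at 6 h, and 9.25, 9.57 and 9.14 at 24 h. Its 24 h libraries all lay below the untreated ones and below the 6 h ones. The change at 24 h was -0.42 (95% interval -0.74 to -0.11), and it did not pass (limma adjusted p = 0.15). The 5 basal keratinocyte markers had changes of -0.35 to -0.12 at 24 h, all negative, with none passing and Trp63 the largest (limma adjusted p = 0.212). Negative changes at 24 h were found for 9943 of all 19938 genes. At 1.5 h and 6 h the change of Col17a1 was -0.13 and -0.02 (limma adjusted p = 0.683 and 0.934). The other transmembrane genes (Col13a1, Col23a1 and Col25a1) had changes of -0.02 to 0.22 over the 3 times.

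Col8a1, a short-chain collagen of vessels and the cornea, had 6.65, 6.65 and 6.66 in untreated skin, 6.91, 6.94 and 6.89 at 1.5 h, 6.60, 6.69 and 6.75 at 6 h, and 7.0, 6.77 and 6.76 at 24 h. Its 1.5 h and 24 h libraries were all above the untreated ones. The change was 0.26, 0.03 and 0.19, with limma adjusted p of 0.17, 0.862 and 0.325. Col8a2 had 0.28, 0.15 and 0.22. Col10a1, of growth plate cartilage, had -0.29, 0.06 and -0.24. The multiplexins Col15a1 and Col18a1, of basement membrane zones, had 6 h changes of -0.22 and 0.09. At 24 h they had -0.16 and 0.02, and 0.14 and 0.15 without the third 24 h library.

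Chains that join in 1 collagen were next set against each other over the 12 libraries, in 13 pairs. The libraries share their RNA amount, scaling and tissue makeup, and each p is from 100000 permutations of the libraries, whose smallest value is 1e-05, with Benjamini-Hochberg adjustment over the 13 pairs. Col1a1 and Col1a2, which lie on chromosomes 11 and 6, correlated at Pearson r = 0.97 and Spearman rho = 0.937 (permutation p = 1e-05 and 5e-05, adjusted 3.25e-05 and 0.000217). Without the 2 libraries farthest from the median of Col1a1 the r was 0.961.

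The 3 pairs of the type VI trimer did likewise. Col6a1 and Col6a2 had r = 0.959 and rho = 0.937, Col6a1 and Col6a3 had 0.917 and 0.909, and Col6a2 and Col6a3 had 0.971 and 0.986, each with a permutation p of 1e-05 for r (adjusted 3.25e-05) and of at most 0.00014 for rho (adjusted at most 0.000455). Without the 2 farthest libraries the r was 0.916, 0.877 and 0.957. Col4a1 and Col4a2, neighbours on chromosome 8, had r = 0.943 and rho = 0.86 (permutation p = 0.0001 and 0.00072, adjusted 0.00026 and 0.00187), and r = 0.753 without replicate 1 at 6 h and replicate 3 at 24 h. Col5a1 and Col5a2 had r = 0.784 and rho = 0.783 (permutation p = 0.00183 and 0.00405, adjusted 0.00396 and 0.00877), and 0.732 without the 2 farthest libraries.

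Among cartilage chains, Col9a2 and Col9a3 had r = 0.723 and rho = 0.671 (permutation p = 0.00813 and 0.0198, adjusted 0.0151 and 0.0322), and r = 0.687 without the 2 farthest libraries. Col9a1 and Col9a3 had r = 0.666 and rho = 0.713 (permutation p = 0.0156 and 0.012, adjusted 0.0253 and 0.0224), but r fell to 0.445 without the third untreated and first 6 h libraries, so it rests on those. In all, 8 of 13 pairs passed for r. Col4a3 and Col4a4 (r = 0.423, rho = 0.413), Col4a5 and Col4a6 (0.0503 and -0.0979), Col8a1 and Col8a2 (0.473 and 0.531), Col9a1 and Col9a2 (0.487 and 0.42) and Col11a1 and Col11a2 (0.475 and 0.608) did not, with adjusted permutation p of 0.144 to 0.874 for r and of 0.0584 to 0.767 for rho. For these pairs, in the same order, r without the 2 farthest libraries was 0.197, 0.0948, 0.484, 0.388 and 0.732. As deviations from the group means, r was 0.827, 0.0898, 0.188, 0.221 and 0.593, and these values were not tested. So a pair that did not pass may still vary together within groups. In 7 of the 13 pairs both chains were above the median signal, and all 7 passed. No pairs from different collagens were run, so a pass does not show that partner chains vary together more than other bright collagens do.

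**Figure D4:**
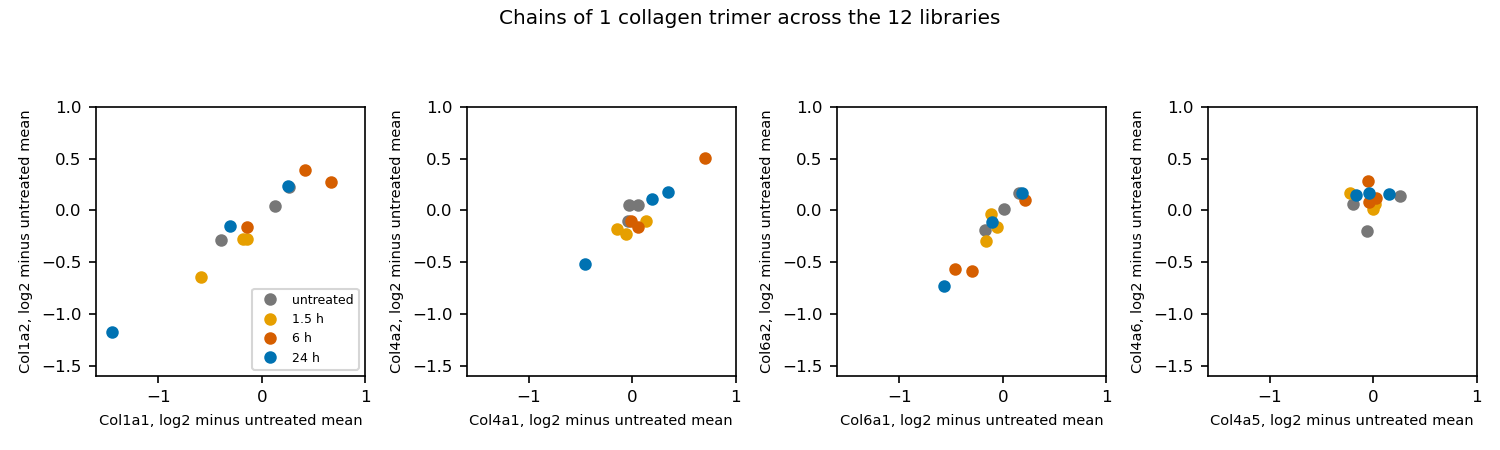
Each point is 1 of the 12 libraries, coloured by group, with the log2 signal of 1 chain minus its untreated mean on each axis. The points of Col1a1 and Col1a2, Col4a1 and Col4a2, and Col6a1 and Col6a2 follow a line (r = 0.97, 0.943 and 0.959), and those of Col4a5 and Col4a6 do not (0.0503).

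By the RefSeq order of genes, 8 pairs of collagen genes are next to each other on a chromosome. On chromosome 1 these are Col3a1 with Col5a2, Col4a3 with Col4a4, and Col9a1 with Col19a1. Col6a4, Col6a5 and Col6a6 lie in a row on chromosome 9 and had 6 h changes of 0.40, -0.29 and 0.13. Col6a1 and Col6a2 adjoin on chromosome 10, Col4a1 and Col4a2 on chromosome 8, and Col4a5 and Col4a6 on the X chromosome.

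The genes that fold, cut, bind and degrade collagen were set beside the family, with lists chosen for their known roles. Of all genes, 2.2% were called at 1.5 h, 6.09% at 6 h and 3.36% at 24 h. These shares are the background of every count of calls that follows. For the counts of unadjusted limma p under 0.05, the background is 3490, 4616 and 3407 of all 19938 genes at those times. Enzymes and chaperones that modify and fold procollagen (22 measured) had a median change of -0.04 at 1.5 h, -0.16 at 6 h and 0.04 at 24 h. At 6 h, 0 rose and 2 of 22 fell, where 11 had an unadjusted limma p under 0.05 and 2.71% of all genes fell. At 1.5 h and 24 h 0 passed, where 1 each had an unadjusted limma p under 0.05. Fkbp14, a prolyl isomerase of the endoplasmic reticulum, had 7.05, 7.19 and 7.97 in untreated skin, 7.97, 7.49 and 7.09 at 1.5 h, 6.46, 6.04 and 6.14 at 6 h, and 7.35, 7.38 and 6.52 at 24 h. It fell at 6 h, below every untreated library, by 1.19 on the log2 scale (limma adjusted p = 0.0249). Crtap, part of the complex that hydroxylates prolines of collagen, fell by 0.41 at 6 h (limma adjusted p = 0.0433). Plod3, a lysyl hydroxylase, had the smallest p at 1.5 h and 24 h, with -0.26 and 0.31 (limma adjusted p = 0.221 and 0.15).

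Among enzymes that trim procollagen and crosslink fibrils (12 measured), 1 rose and 1 fell at 6 h and at 24 h, and 0 passed at 1.5 h. An unadjusted limma p under 0.05 was found for 1 at 1.5 h, 3 at 6 h and 3 at 24 h. Medians were 0.12, 0.00 and 0.08. Loxl3, a lysyl oxidase that crosslinks collagen and elastin, had 6.16, 6.05 and 5.75 in untreated skin, 6.43, 6.46 and 6.51 at 1.5 h, 7.18, 6.87 and 7.51 at 6 h, and 7.09, 7.17 and 7.12 at 24 h. Every treated library was above the untreated ones. Its change was 0.48 at 1.5 h (limma adjusted p = 0.114), 1.20 at 6 h (0.000159) and 1.14 at 24 h (0.000357). Tll1, a protease of the procollagen C-propeptide, fell by 0.70 at 6 h (limma adjusted p = 0.00883), and Pcolce2, an enhancer of that protease family, fell by 0.65 at 24 h (0.0105).

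Of 17 proteins that bind fibrils, 2 fell at 1.5 h and 0 passed at 6 h and 24 h. An unadjusted limma p under 0.05 was found for 10 of them at 1.5 h, 7 at 6 h and 2 at 24 h. Medians were -0.26, -0.13 and -0.12. Fmod (fibromodulin) had a mean of 6.90 ± 0.23 at 1.5 h, against 7.87 ± 0.09 in untreated skin (SD, n = 3 each), a change of -0.98 (limma adjusted p = 0.0271). Kera (keratocan) fell by 0.95 at 1.5 h (limma adjusted p = 0.0435), and with values under 5 raised to 5 the change was -0.52 and did not pass (0.347). Thbs1, a thrombospondin, at 6 h and Dpt (dermatopontin) at 24 h had the smallest p, with 0.49 and -0.30 (limma adjusted p = 0.0614 and 0.184).

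Collagen receptors and uptake genes (10 measured) had 0 calls at 1.5 h and 6 h, where 4 and 0 had an unadjusted limma p under 0.05. They had 1 rise at 24 h, where 5 had such a p. Medians were -0.04, -0.09 and -0.21. Lair1, an inhibitory collagen receptor of leukocytes, had 4.69, 4.63 and 5.16 in untreated skin, 5.40, 5.07 and 5.19 at 1.5 h, 5.08, 5.01 and 4.99 at 6 h, and 6.93, 7.25 and 7.50 at 24 h. Its 24 h libraries stood far above all others, with a change of 2.40, or 5.28-fold (limma adjusted p = 8.69e-07). Of the 6 leukocyte markers, 5 rose at 24 h, with a median of 1.14, and 2 at 6 h, with a median of 0.42, and the part of leukocytes in the Lair1 value was not tested. Ddr2, a collagen receptor kinase, at 1.5 h and the integrin gene Itga2 at 6 h had the smallest p, with -0.36 and -0.21 (limma adjusted p = 0.133 and 0.278).

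Enzymes that degrade collagen and their inhibitors (14 measured) had 2 falls at 1.5 h (1.59% of all genes fell), 3 rises at 6 h (3.38% of all genes rose), and 1 rise and 2 falls at 24 h (2.55% and 0.808% of all genes), and 6 had an unadjusted limma p under 0.05 at each time. Medians were -0.11, 0.15 and -0.10. Mmp13, the main interstitial collagenase of the mouse, had 6.29, 6.22 and 5.25 in untreated skin, 4.56, 4.67 and 4.42 at 1.5 h, 8.30, 8.01 and 8.5 at 6 h, and 4.70, 5.15 and 5.58 at 24 h. Its 1.5 h libraries lay below and its 6 h libraries above all untreated ones. It fell by 1.37 at 1.5 h (limma adjusted p = 0.0213) and rose by 2.35 at 6 h, or 5.09-fold (5.48e-05). At 24 h against 6 h it fell by 3.13 (limma adjusted p = 4.19e-05).

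Timp1, an inhibitor of these enzymes, had 6.67, 6.11 and 6.68 in untreated skin, 7.37, 6.54 and 7.14 at 1.5 h, 8.91, 9.09 and 9.21 at 6 h, and 8.85, 9.20 and 9.34 at 24 h. All 6 h and 24 h libraries were above all untreated and 1.5 h ones. It rose by 2.58 at 6 h (limma adjusted p = 2.41e-06) and by 2.64 at 24 h (3.42e-06). Mmp8, the neutrophil collagenase, had a mean of 4.32 ± 0.29 at 6 h, against 3.42 ± 0.13 in untreated skin (SD, n = 3 each), and the rise of 0.90 (limma adjusted p = 0.0328) was 0.00 with values under 5 raised to 5. Mmp16, a membrane-bound protease, fell by 0.62 at 1.5 h (limma adjusted p = 0.0357) and by 0.66 at 24 h (0.0146), and Timp2 fell by 0.42 at 24 h (0.0345).

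In the TGF-beta pathway, which drives collagen transcription in fibroblasts, 0 of 19 passed at 1.5 h and 24 h, and 1 fell at 6 h. An unadjusted limma p under 0.05 was found for 8 at 1.5 h, 3 at 6 h and 1 at 24 h. Medians were -0.11, -0.08 and -0.04. Tgfbr1, a receptor kinase, had a mean of 7.45 ± 0.06 at 6 h, against 7.88 ± 0.12 in untreated skin (SD, n = 3 each), a change of -0.44 (limma adjusted p = 0.0175). Ltbp1, which stores latent TGF-beta, at 1.5 h and the coreceptor Tgfbr3 at 24 h had the smallest p, with -0.50 and -0.43 (limma adjusted p = 0.069 and 0.0942). Laminins and other basement membrane partners (15 measured) had 0 calls at all 3 times, where 1, 1 and 4 had an unadjusted limma p under 0.05, with medians of -0.17, -0.06 and -0.13. The smallest p was that of Lama4 at 1.5 h (-0.34), Nid2 at 6 h (-0.46) and Lama3 at 24 h (-0.43), with limma adjusted p of 0.272, 0.127 and 0.136.

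Of these 18 calls against untreated skin, 7 held in every alternative run, namely those of Loxl3 and Timp1 at 6 h and 24 h, Mmp13 and Tll1 at 6 h and Lair1 at 24 h. The other 11 were each lost in some fits that left out 1 library, with changes of the same sign. With values under 5 raised to 5, the calls of Mmp13 at 1.5 h (-0.92, limma adjusted p = 0.169), Mmp16 at 1.5 h (-0.56, 0.078), Fmod (-0.98, 0.0973), Fkbp14 (-1.19, 0.0904), Kera and Mmp8 were lost. Fmod and Fkbp14 had no value under 5, so their changes stayed the same and only the adjusted p moved. Losing any untreated library ended the calls of Crtap, Fmod, Mmp8 and Timp2. Losing untreated replicate 1 or 2 ended that of Mmp13 at 1.5 h, replicate 2 or 3 those of Kera and Mmp16 at 1.5 h, replicate 2 that of Mmp16 at 24 h, and replicate 3 those of Fkbp14, Pcolce2 and Tgfbr1. Losing a 1.5 h library ended Mmp13 and Kera (any), Fmod and Mmp16 at 1.5 h (replicate 1 or 2) and Crtap (replicate 2 or 3). Losing a 6 h library ended Kera (any), Crtap and Fkbp14 (replicate 2 or 3), Mmp8 (replicate 1 or 3) and Tgfbr1 (replicate 1). Losing a 24 h library ended Crtap and Kera (replicate 1), Timp2 (replicate 1 or 3) and Mmp16 at 24 h (replicate 2 or 3).

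**Figure D5:**
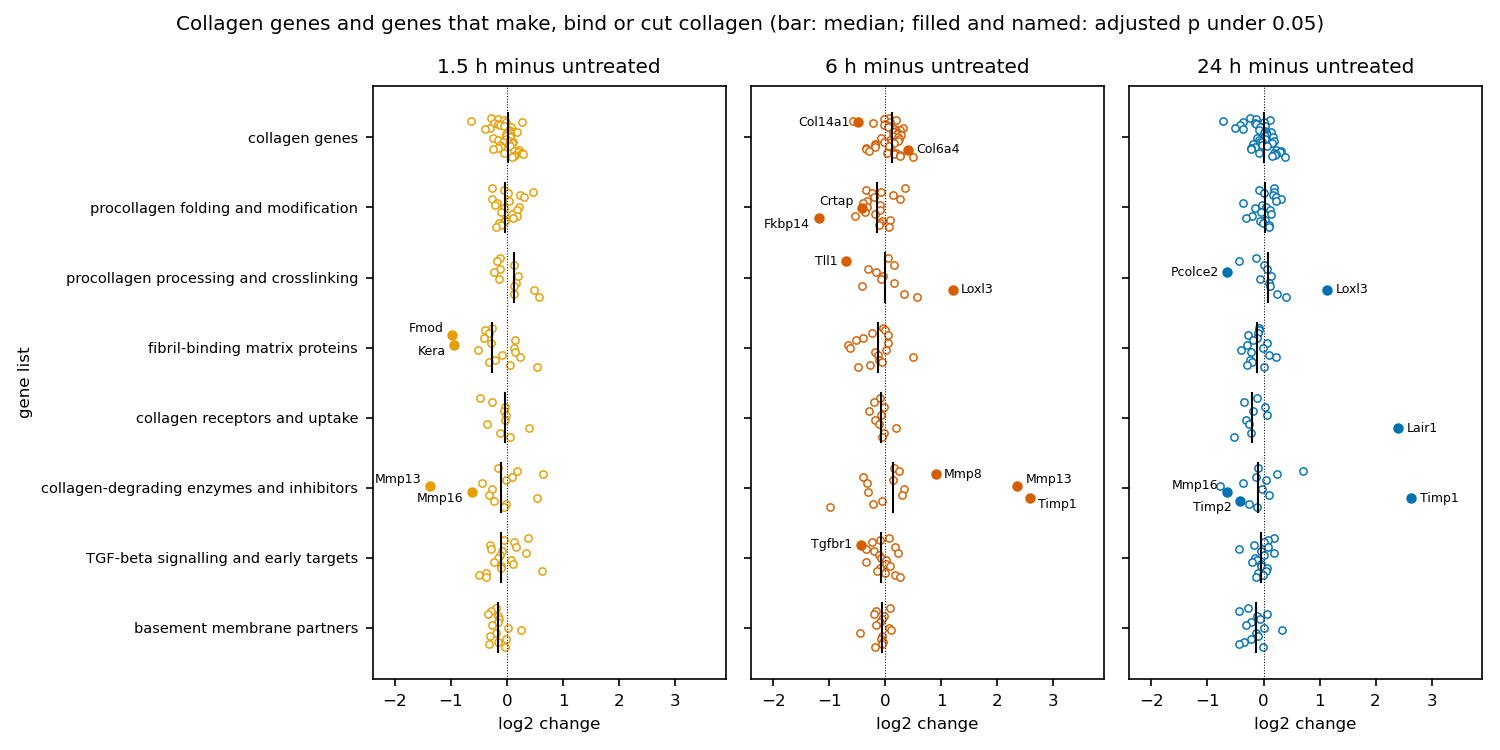
Points are log2 changes against untreated skin at 1.5 h, 6 h and 24 h for the 44 collagen genes and for the 7 lists of genes that make, bind or cut collagen, with a bar at each list's median. Filled points passed at a limma adjusted p under 0.05 and carry their names, and the farthest from 0 are Mmp13, Timp1 and Lair1.

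Of the 11 fibroblast markers, 1 passed at each time, with medians of -0.18 at 1.5 h, -0.29 at 6 h and -0.22 at 24 h, and 9, 10 and 11 of them had negative changes. Of all 19938 genes, 9091, 11208 and 9943 had negative changes at those times. Of the 9969 genes above the median signal, 4768, 7586 and 5595 did, with medians of 0.01, -0.14 and -0.03. The fibroblast markers were not tested against those genes. Their part in the collagen values was not tested. Twist2, a transcription factor of dermal fibroblasts, fell by 0.71 at 1.5 h (limma adjusted p = 0.0357). Pdgfrb, a receptor of fibroblasts and pericytes, had a mean of 8.56 ± 0.04 at 6 h, against 7.72 ± 0.03 in untreated skin (SD, n = 3 each), a rise of 0.84 (limma adjusted p = 0.00869). Fap, a protease of activated fibroblasts, had 6.90 ± 0.02 at 24 h, against 7.85 ± 0.21 (SD, n = 3 each), a fall of 0.96 (limma adjusted p = 0.00138). Endothelial and basal keratinocyte markers had 0 calls at any time.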

How the data were processed

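The data were 12 arrays, 1 for each skin sample. The authors deposited log2 intensities, and the submitters' processing notes name RMA and Affymetrix Expression Console 1.1. RMA normalizes arrays at the probe level and gives no detection call, so low signals cannot be told from the floor of the array. Small changes of dim genes are compressed. Total RNA was amplified before labelling, per the labels' protocols, and array number limits the precision.

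Probe sets with 1 gene symbol in the platform annotation were kept (21789 of 35556), and the probe set with the highest mean stood for a gene, which left 19938 genes. A linear model of all 4 groups was fitted in limma 3.58.1 under R 4.3.3 and moderated by eBayes (8 residual and 5.24 prior degrees of freedom), with p-values adjusted by Benjamini-Hochberg over all genes in each of 6 comparisons and a moderated F test over the 3 times. Tests are two-sided. The fit was tested on simulated data. Correlations of chain pairs used scipy 1.17.1 and Python 3.11.15. The labels call replicates biological but do not tell how animals were housed or processed, so p-values measure the spread between these samples.

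The members and lists were chosen with earlier results of these data known. By the rule for named genes, values by sample are given for collagen genes called in any comparison, for those with the smallest F test p until 8 are reached, and for 8 collagens best known in skin, which makes 14. From each list, the 3 called genes with the largest change and the largest the other way are named against untreated skin, or the one with the smallest p. Genes listed by whether groups overlap were picked after their values were seen. Some members of the gene lists were not analysed here. Alternatives were a block for replicate number, a fit without each library in turn, other variance models, scalings, filters, a floor at 5, the mean of a gene's probe sets, fits of the groups compared, and, added after the data were seen, a fit without the first 1.5 h and first 6 h libraries.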

Additional observations from a re-analysis of the deposited data

Results flagged for a closer look

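Col14a1 changed differently at different times. Its change against untreated skin at 6 h was lower than that at 1.5 h by 0.76 log2 units (-0.76, limma adjusted p = 0.00329), and its change at 24 h was lower than that at 1.5 h by 0.63 (-0.63, limma adjusted p = 0.0186). All 3 libraries at 1.5 h were above every untreated library, while all 3 at 6 h and all 3 at 24 h were below every one. The gaps between the means on the opposite sides, 0.76 at 6 h and 0.63 at 24 h, are those same differences and add nothing to them. The call at 6 h against 1.5 h was lost in 0 alternatives, and that at 24 h against 1.5 h in 7. The change at 1.5 h itself, 0.27, did not pass (limma adjusted p = 0.32). The cause was not tested.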

How the results depend on the processing

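Same-numbered libraries of different groups had correlations of deviations from the group means of -0.215 to 0.334 over 18 pairs, 4 of them over 0.1. Libraries of different numbers and groups had -0.285 to 0.238. The labels do not say whether the numbers pair the samples, and these correlations cannot decide it. With the replicate number as a replicate block, the count of collagen genes called at 6 h was 0 in place of 2 (limma adjusted p = 0.0698 for Col14a1 and 0.0665 for Col6a4), and the other counts were unchanged. The 6 h count was also 0 with no moderation of the variance, quantile normalization, values under 5 raised to 5, or only the groups compared, and 1 with a variance trend and robust fit, arrays centred on their medians, only genes above the median signal, or both libraries high in lymph node genes left out. The 24 h count was 1 (Col12a1) with a variance trend and robust fit or only genes above the median signal. At 6 h against 1.5 h it was 2 (Col14a1 and Col8a1) with arrays centred on their medians. At 24 h against 1.5 h it was 0 with no moderation, values under 5 raised to 5, or only the groups compared. The F test called 2 with a trend and robust fit or only genes above the median signal (Col12a1 and Col14a1), and 2 with arrays centred on their medians (Col14a1 and Col8a1). Leaving out 1 library gave counts of 0 to 1 at 1.5 h, 0 to 2 at 6 h, 0 to 1 at 24 h, 1 to 1 at 6 h against 1.5 h, 0 to 0 at 24 h against 6 h, 0 to 1 at 24 h against 1.5 h and 1 to 2 for the F test. Counts over all genes moved more: at 1.5 h 439 genes were called, 41 with no moderation, 121 with values under 5 raised to 5, 198 without both libraries high in lymph node genes, and 97 to 597 on leaving out 1 library. At 6 h against 1.5 h they moved to 4609 with arrays centred on their medians, against 2646. On leaving out 1 library the ranges were 712 to 1364 at 6 h, 423 to 756 at 24 h, 949 to 2951 at 6 h against 1.5 h, 142 to 877 at 24 h against 6 h, 321 to 653 at 24 h against 1.5 h and 1189 to 2409 for the F test.

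Of the changes of the 14 collagen genes described by library, 895 alternatives kept direction and side of the threshold, 38 lost the call, 6 gained it and 26 turned direction. Most of these changes were never called, so they had no call to lose. Col14a1 lost its call in 14 alternatives at 6 h, in 7 at 24 h against 1.5 h and in 0 at 6 h against 1.5 h. Col6a4 lost its 6 h call in 17. Each had 12 fits that left out 1 library and 10 others (9 for Col6a4). Without both libraries high in lymph node genes, Col17a1 had 0.01 at 1.5 h and 0.03 at 6 h, and Col4a2 had -0.13 at 6 h. With arrays centred on their medians, Col7a1 had 0.05 and Col4a1 had 0.08 at 1.5 h. Leaving out 1 library turned these small changes, none of which passed: Col9a3 at 1.5 h (-0.04 to 0.26), Col17a1 at 1.5 h (-0.21 to 0.02) and 6 h (-0.08 to 0.03), Col27a1 at 1.5 h (-0.05 to 0.09) and 24 h (-0.02 to 0.12), Col1a2 at 24 h (-0.66 to 0.05), Col3a1 at 6 h (-0.32 to 0.06) and 24 h (-0.37 to 0.22), Col4a1 at 1.5 h (-0.10 to 0.04) and 24 h (-0.13 to 0.27), Col4a2 at 6 h (-0.13 to 0.20) and 24 h (-0.21 to 0.15), and Col6a1 at 24 h (-0.33 to 0.05). Of the 18 called changes of genes that make, bind or cut collagen, 306 alternatives kept the call, 82 lost it and 0 turned direction. Signal near the floor of the array limits what can be said of dim genes such as Col6a4. The causes were not tested.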

Other observations

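Col6a5, a type VI chain of skin, was picked after its values were seen. Its brighter probe set had 6.51 in the first 1.5 h library and 6.90 in the second 24 h library, and between 5.39 and 6.03 in the other 10. A second probe set of the gene had 5.39 and 5.65 in those libraries, within its range of 5.38 to 5.81, so the probe sets disagree on both. At 6 h that second set had 5.48, 5.49 and 5.81, which overlapped its untreated 5.76, 5.52 and 5.38, unlike the brighter set. For Col6a6 the second probe set had 5.06 to 5.78 over the 12 libraries. Its 24 h values of 5.37, 5.63 and 5.06 overlapped its untreated 5.46, 5.42 and 5.58, where those of the brighter set all lay above.

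The spread between replicates differed widely within the family. The within-group SD of Col1a1 (0.53), Col1a2 (0.43), Col3a1 (0.40), Col6a3 (0.38) and Col6a5 (0.44) lay at percentiles 96.7 to 99 of all genes, while that of Col25a1 (0.07) lay at percentile 2.67, that of Col8a1 (0.08) at 3.26 and that of Col7a1 (0.09) at 6.12.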
